A study of Mus musculus with 6 samples.

Results

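Nuclear receptors and coregulators were examined as 41 genes of the 56691 in the deposited table, 35 receptors of the nuclear receptor superfamily and 6 coregulators. The members were given as a list of mouse gene symbols, in which the Rev-erb receptors are left out, and each symbol was matched to its Ensembl gene ID. Nuclear receptors are transcription factors whose activity is set by small lipophilic ligands such as bile acids, oxysterols, fatty acids, thyroid hormone, retinoids and steroids. Most receptors of metabolic ligands bind DNA as a heterodimer with a retinoid X receptor, and they act by exchanging corepressors such as NCOR1 for coactivators such as the NCOA proteins. In liver they control bile acid, cholesterol, fatty acid, glucose and drug metabolism.

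The study asked how hepatic ChREBP, a fructose-responsive transcription factor encoded by *Mlxipl*, acts on the liver of pregnant mice. Poly(A) RNA of the liver was sequenced in 3 dams of the KPF group (h*Chrebp* KO, replicates 1 to 3) and 3 dams of the WPF group (replicates 2 to 4). Both groups were pregnant females fed HFrD, a high-fructose diet, during pregnancy. In the study's design the diet ran from mating until the dams were killed, late in pregnancy. The labels give WPF as wild type, whereas the study's methods give *Chrebp* flox/flox without Cre, and the same floxed alleles with 1 copy of Alb-Cre in KPF. The age of the dams is not given in the sources used here. Alb-Cre is active in hepatocytes, so that other liver cells keep the gene, and the WPF dams carried no Cre. The libraries held 10694496 to 14496630 counted reads, every KPF library fewer than every WPF library.

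The 7 hepatocyte markers, among them *Alb* and *Ttr*, were present in every library, with a summed level of 37605 to 45143 FPKM in KPF and 52660 to 72319 FPKM in WPF (FPKM, the read count per length of exon and per total of counted reads). Most of this sum was *Alb*, at a mean of 39116 FPKM. *Mlxipl* itself had 179, 700 and 849 CPM in KPF against 961, 1260 and 879 CPM in WPF (CPM, the read count per TMM-scaled library total, in the order of the replicate numbers here and below). Every KPF value was below every WPF value. The log2 fold change of KPF over WPF, the measure used throughout, was -0.84 (SE 0.53, edgeR's quasi-likelihood test, Benjamini-Hochberg adjusted p = 0.584), and the counts cover the whole gene, not only the deleted exon. KPF replicate 2 stood apart by the 3 skeletal muscle markers, whose summed level was 1345 FPKM there and 3.06 to 4.50 FPKM in the other libraries. The 4 adipocyte markers summed to 4.84, 19.7 and 1.24 FPKM in KPF and to 0.00, 0.34 and 0.01 FPKM in WPF, with *Lep* at 0 in every library. The 6 markers of fibroblasts and mesothelium summed to 5.93 to 14.9 FPKM in KPF and to 2.87 to 4.73 FPKM in WPF, and the 5 lymphocyte markers to 3.88 to 6.46 FPKM and 2.10 to 3.47 FPKM. In pieces of whole liver, fewer cells of a type and less RNA per cell cannot be told apart.

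Upstream sequences of the members were taken from RefSeq (GRCm38.p6), as the 250 bases before an annotated start, and 35 members had 53 such windows. *Ncoa3*, *Hnf4g*, *Thra*, *Ncoa2*, *Nr3c1* and *Ppargc1b* were without one. A pair of short words were searched on both strands. CACGTG, the E box that forms the core of the ChREBP binding element, was in 4 member windows, of *Nr0b2*, *Nr1i3*, *Rara* and *Thrb*, and in 6.02% of all 32851 windows of this length. AGGTCA, the half-site of most nuclear receptors (TGACCT on the other strand), was in 9 windows of 8 members, *Nr1h4*, *Nr5a2*, *Nr6a1*, *Pparg*, *Rarg*, *Rxra*, *Rxrg* and *Thrb*, and in 14.0% of all windows. The last 2 letters of AGGTCA are the first 2 of CACGTG, so the words can overlap, but no member window held both. The windows of *Nr1h4* and *Esr1* are shown because these were the members that differed most clearly between the groups, and those of *Nr1i3* and *Nr0b2* because they hold an E box and their levels varied more than 4-fold between dams. They are printed 5′ to 3′ on the strand of the gene, with the matched words in capitals.
Nr1h4 (chr10:89506659-89506908, minus strand): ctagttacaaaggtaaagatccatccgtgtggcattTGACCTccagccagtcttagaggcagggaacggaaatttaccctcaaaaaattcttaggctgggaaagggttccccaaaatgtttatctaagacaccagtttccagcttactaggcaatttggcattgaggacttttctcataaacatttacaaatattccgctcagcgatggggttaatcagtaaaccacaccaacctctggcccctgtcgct
Esr1 (chr10:4611739-4611988, plus strand): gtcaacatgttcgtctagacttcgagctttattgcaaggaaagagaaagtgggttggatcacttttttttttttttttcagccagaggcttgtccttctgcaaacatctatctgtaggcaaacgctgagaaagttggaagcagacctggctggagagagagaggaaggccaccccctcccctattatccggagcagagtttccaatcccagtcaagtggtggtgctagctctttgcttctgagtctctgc
Esr1 (chr10:4709908-4710157, plus strand): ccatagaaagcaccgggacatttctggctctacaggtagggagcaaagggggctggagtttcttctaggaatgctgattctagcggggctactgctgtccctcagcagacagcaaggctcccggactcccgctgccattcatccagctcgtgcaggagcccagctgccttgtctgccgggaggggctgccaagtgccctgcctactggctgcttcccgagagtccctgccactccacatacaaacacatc
Nr1i3 (chr1:171213720-171213969, plus strand): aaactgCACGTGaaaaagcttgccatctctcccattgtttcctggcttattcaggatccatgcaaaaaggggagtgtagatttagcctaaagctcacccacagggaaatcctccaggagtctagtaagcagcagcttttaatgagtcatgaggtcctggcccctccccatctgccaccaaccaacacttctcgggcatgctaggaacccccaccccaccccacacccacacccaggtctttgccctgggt
Nr0b2 (chr4:133553126-133553375, plus strand): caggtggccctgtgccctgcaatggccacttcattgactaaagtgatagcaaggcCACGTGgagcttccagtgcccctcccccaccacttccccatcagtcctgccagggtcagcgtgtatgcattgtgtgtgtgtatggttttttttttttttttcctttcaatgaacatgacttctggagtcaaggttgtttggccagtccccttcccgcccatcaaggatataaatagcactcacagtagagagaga
The window of *Nr1h4* holds the half-site as TGACCT, 214 bases before the start. Neither word is in the windows of *Esr1*. The E box lies 244 bases before the start of *Nr1i3* and 195 bases before that of *Nr0b2*. These matches describe the letters and show no binding.

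The levels of the members spanned the range from abundant hepatocyte factors to genes with hardly a read. The highest was *Hnf4a*, the receptor that maintains hepatocyte identity, at a mean of 91.7 FPKM over the 6 libraries. Next came *Nr1h4*, the bile acid receptor FXR, at 87.6 FPKM, and *Nr1i3*, the xenobiotic receptor CAR, at 82.8 FPKM. The order of these 3 was not separated from the spread between dams, since their single values ranged over 75.3 to 120 FPKM, 52.7 to 133 FPKM and 21.9 to 214 FPKM. *Nr1i2*, the xenobiotic receptor PXR, followed at 52.5 FPKM and *Nr1h3*, the oxysterol receptor LXRα, at 43.9 FPKM. In all, 10 members had a mean above 10 FPKM. The mean FPKM of 31 members reached the minimum of 1 that was set for testing, and 10 members stayed below it.

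**Figure D1:**
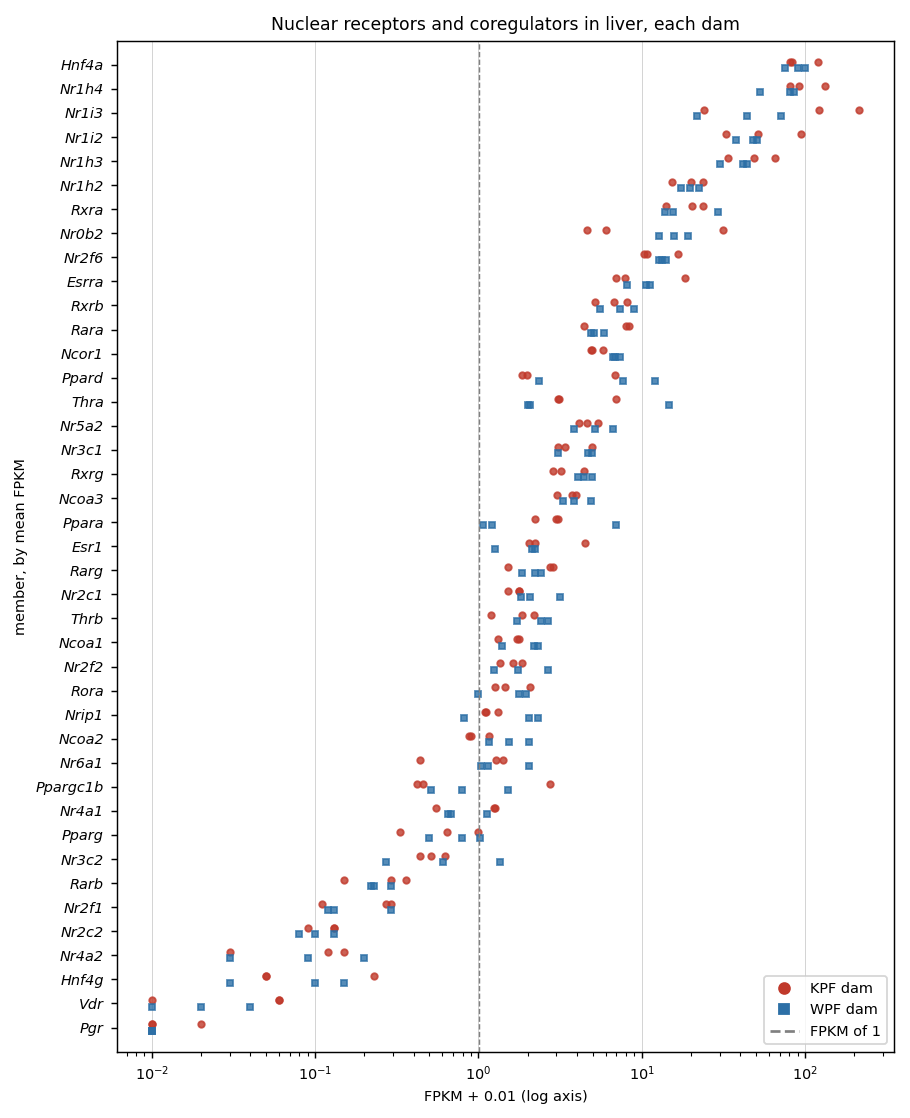
Level of each of the 41 members in each dam, as FPKM + 0.01 on a log axis, ordered by mean FPKM. Circles are the 3 KPF dams, squares the 3 WPF dams, and the dashed line marks the minimum of 1 FPKM for testing, below which 10 members lie.

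The bile acid receptor gene *Nr1h4* and the estrogen receptor gene *Esr1* were called higher in KPF, and such calls were about as common among all tested genes. A gene was called when its unadjusted p in edgeR's quasi-likelihood test was under 0.05 and it differed at least 1.5-fold. Of the 31 tested members, 2 were called higher in KPF, *Nr1h4* and *Esr1*, and 0 were called lower, beside 5.83% of all 10866 tested genes called higher and 3.98% lower, so neither count sets the members apart. No member passed an adjusted p of 0.05, and neither did any other tested gene (0%, edgeR with Benjamini-Hochberg adjustment), although 1177 genes had an unadjusted p under 0.05 and DESeq2 gave 156 genes with an adjusted p under 0.05. The groups did not overlap for 3 members, with KPF above WPF for *Nr1h4* and *Esr1* against 7.55% of all tested genes, and KPF below WPF for *Ncoa2* against 8.15%. The log2 fold change was positive for 17 tested members and negative for 14, beside 5585 and 5281 of all 10866 tested genes. With library totals, 6 of the positive members were negative. The median of the members was 0.0093, beside 0.02 over all tested genes. For 27 of the 31 members the fitted difference was smaller than 1.5-fold, and the share over all tested genes was not counted. With library totals in place of TMM, the 1 member called was *Ncoa2*, lower in KPF at -0.69.

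**Figure D2:**
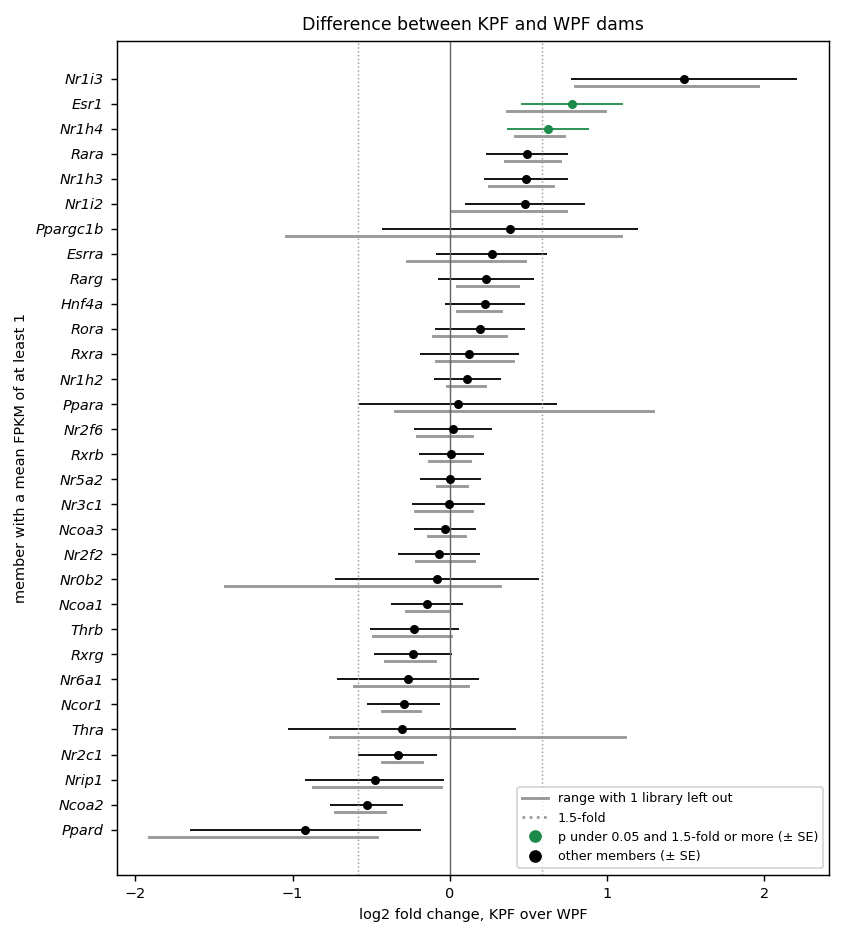
Log2 fold change of KPF over WPF for the 31 tested members (points, with bars of ± 1 SE), with the range obtained when each library was left out in turn (lower grey bars). Only *Esr1* and *Nr1h4*, coloured, pass both limits, and for *Ppara*, *Thra*, *Ppargc1b*, *Nr0b2* and *Nr6a1* the grey bars cross 0 and reach beyond a 1.5-fold difference (dotted lines).

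The bile acid receptor FXR senses bile acids returning to the liver and restrains their synthesis. *Nr1h4* (ENSMUSG00000047638, chr10:89290096-89369447, minus strand, GRCm39, the build of the deposited table) had 216, 309 and 208 CPM in KPF against 136, 171 and 168 CPM in WPF. The 3 KPF dams were above the 3 WPF dams, KPF replicate 2 highest. The KPF dams averaged 244 ± 56.1 CPM and the WPF dams 158 ± 19.4 CPM (± SD, n = 3 each), a 1.54-fold difference. On the log2 scale the difference was 0.62 (SE 0.26). In edgeR's quasi-likelihood test the unadjusted p was 0.0458 and the Benjamini-Hochberg adjusted p 0.456. An exact two-sided permutation test gave p = 0.1, the smallest that 3 dams against 3 allow. *Nr1h4* remained higher in KPF under each of 15 alternative settings and was called in 5 of them. It was not called without KPF replicate 2 (0.41), WPF replicate 2 (0.52), WPF replicate 3 (0.68) or WPF replicate 4 (0.66), nor with library totals (0.48). The call was also lost without an expression filter (0.56), with edgeR's own filter, with limma on log2(FPKM + 1) or log2(FPKM + 0.1), and with the replicate number as a block.

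*Nr0b2* encodes SHP, an atypical receptor without a DNA-binding domain that FXR induces and that represses bile acid synthesis. It had 6.95, 35.7 and 5.76 CPM in KPF against 16.2, 20.1 and 15.1 CPM in WPF. KPF replicate 2 was the highest of the libraries and KPF replicates 1 and 3 were the lowest, so that KPF lay on both sides of WPF. The difference was -0.08 (SE 0.65) on the log2 scale. Without KPF replicate 2, the library with the muscle markers, it was -1.43 and *Nr0b2* was called lower (unadjusted p = 0.00107, adjusted p = 0.348, edgeR's quasi-likelihood test). Of 6 tested FXR target genes, 1 was called, *Abcb11*, the bile salt export pump, lower at -0.88, and the median of the list was -0.35. It lost its call without KPF replicate 1 or 2 or WPF replicate 2 or 3, and 2 genes of the list were called lower without KPF replicate 3 or WPF replicate 4. *Cyp7a1*, the rate-limiting enzyme of bile acid synthesis, had 29.7, 108 and 173 CPM in KPF against 14.1, 11.3 and 153 CPM in WPF, and *Cyp8b1*, the sterol 12-hydroxylase, had 25.2, 9.20 and 42.3 CPM in KPF and 96.5, 72.0 and 9.14 CPM in WPF. Neither was called in the comparison of all 6 dams. In WPF, *Cyp7a1* was highest and *Cyp8b1* lowest in replicate 4, and without that library 1 of the pair was called higher and 1 lower.

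The liver X receptors respond to oxysterols and induce cholesterol export and lipogenesis. *Nr1h3* (LXRα) had 167, 123 and 94.7 CPM in KPF against 84.9, 97.1 and 93.5 CPM in WPF, where KPF replicate 3 lay within the WPF range. Its log2 fold change was 0.48 (SE 0.27, adjusted p = 0.546, edgeR's quasi-likelihood test), and it was called without KPF replicate 3 at 0.66. *Nr1h2* (LXRβ) was among the steadiest members, at 57.4 to 80.5 CPM with a log2 fold change of 0.11 (SE 0.21). The share of *Nr1h3* in the summed FPKM of both genes was 71.1% ± 2.36 in KPF and 65.9% ± 2.30 in WPF (mean ± SD, n = 3), with no overlap and an exact two-sided permutation p of 0.1. Of 9 tested LXR target genes, 4 were called lower in KPF and 0 higher, beside 3.98% and 5.83% of all tested genes. The list median was -0.77, beside 0.02 over all tested genes. The 4 called lower were *Scd1*, a fatty acid desaturase (-4.74), *Lpcat3*, a phospholipid-remodelling enzyme (-0.92), *Pltp*, the phospholipid transfer protein (-1.02), and *Smpdl3a*, a phosphodiesterase (-0.77). *Scd1* is a target of ChREBP as well. Its level was 223, 96.3 and 203 CPM in KPF against 5679, 7892 and 344 CPM in WPF, so that WPF replicate 4 lay near the KPF dams. With 1 library left out, 3 to 5 of these targets were called lower.

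The 3 PPARs respond to fatty acids and their derivatives: PPARα drives fatty acid oxidation in the fasted liver, PPARδ acts in many tissues, and PPARγ drives fat storage in adipocytes. *Ppara* had 11.9, 11.5 and 9.41 CPM in KPF against 5.18, 3.72 and 22.5 CPM in WPF. The KPF dams were close together, and the WPF dams lay on both sides of them. Its log2 fold change was 0.05 (SE 0.63), and it was 1.29 without WPF replicate 4, where *Ppara* was called higher (unadjusted p = 0.00445, edgeR's quasi-likelihood test).

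*Ppard* had 15.1, 13.9 and 57.5 CPM in KPF against 64.7, 84.0 and 14.9 CPM in WPF. KPF replicate 3 sat with WPF replicates 2 and 3, and WPF replicate 4 with KPF replicates 1 and 2. Its log2 fold change was -0.92 (SE 0.74, adjusted p = 0.670, edgeR's quasi-likelihood test), and it was called lower at -1.91 without KPF replicate 3. In the summed FPKM of the 3 PPAR genes, *Ppara* had the largest share in KPF replicate 1 (50.8%), KPF replicate 2 (54.7%) and WPF replicate 4 (71.0%). *Ppard* had the largest share in KPF replicate 3 (73.1%), WPF replicate 2 (79.5%) and WPF replicate 3 (85.5%). Which isotype prevailed therefore divided the dams across the groups and not between them.

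*Pparg* had 11 to 39 reads a library, below the FPKM minimum, and a log2 fold change of -0.15 (SE 0.52). All 21 PPARα target genes were tested, with 0 called higher and 1 lower, *Fabp1*, the fatty acid binding protein of liver, at -1.11. The median of the list was 0.05, and 2 of its genes were called higher without KPF replicate 2 or without WPF replicate 4. The number called lower was 2 without KPF replicate 2 and 3 without KPF replicate 1 or WPF replicate 4. Of 3 tested PPARγ targets, *Fabp4*, the fatty acid binding protein of adipocytes and macrophages, was called higher at 1.69. It had 34.7, 36.1 and 7.69 CPM in KPF against 11.8, 7.87 and 4.86 CPM in WPF. The adipocyte markers given above were also highest in KPF replicates 1 and 2, and their part in *Fabp4* was not tested. *Fabp4* lost its call without KPF replicate 1 or 2 or WPF replicate 3 or 4, and without KPF replicate 3 the list had 2 genes called higher.

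The xenobiotic receptors CAR and PXR induce cytochrome P450 enzymes, transporters and conjugating enzymes. *Nr1i3* (CAR) varied more than any other tested member, 10.7-fold between the lowest and the highest library. It had 545, 950 and 118 CPM in KPF against 219, 89.1 and 267 CPM in WPF. KPF replicates 1 and 2 were above every WPF dam, and KPF replicate 3 was within the WPF range. Its log2 fold change, 1.49 (SE 0.72), was the largest of the tested members in either direction and did not pass the limit (unadjusted p = 0.0743, adjusted p = 0.496, edgeR's quasi-likelihood test). Without KPF replicate 2 it was 0.79, without KPF replicate 3 it was 1.96 and called, and DESeq2 called it at 1.49. *Nr1i2* (PXR) had 135, 241 and 92.9 CPM in KPF against 137, 89.1 and 111 CPM in WPF. A log2 fold change of 0.48 (SE 0.38) became 0.02 without KPF replicate 2.

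Of 14 tested CAR and PXR target genes, 2 were called higher in KPF and 2 lower. *Cyp2b13*, a cytochrome P450 of the Cyp2b family, was higher at 2.01, with 30.7, 168 and 43.2 CPM in KPF against 13.7, 14.8 and 31.4 CPM in WPF. *Cyp2b10* of the same family was below the FPKM minimum, with 1, 46 and 16 reads in KPF against 2, 1 and 3 in WPF. *Alas1*, the first enzyme of heme synthesis, was higher at 1.98, with 173, 710 and 64.0 CPM in KPF against 62.8, 56.0 and 122 CPM in WPF. *Cyp3a11*, the classical PXR target, was lower at -2.38, with 52.6, 235 and 225 CPM in KPF against 1284, 629 and 761 CPM in WPF. *Cyp2c29* was lower at -1.28. Both genes called higher peaked in KPF replicate 2, the library in which *Nr1i3* and *Nr1i2* peaked too, and without it 0 targets were called higher and 3 lower. There were 0 calls higher and 1 lower without WPF replicate 2 or 3, 3 higher and 1 lower without KPF replicate 1, 3 and 3 without KPF replicate 3, and 3 higher and 2 lower without WPF replicate 4.

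The retinoid X receptors are the common partners of the receptors above. *Rxra* led them with 54.0 to 67.9% of their summed FPKM. Its levels, 130, 151 and 98.2 CPM in KPF against 110, 80.1 and 158 CPM in WPF, overlapped. The log2 fold changes were 0.12 (SE 0.32) for *Rxra*, 0.01 (SE 0.21) for *Rxrb* and -0.24 (SE 0.25) for *Rxrg*. *Rxrb* varied only 1.43-fold over the 6 libraries.

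Among the retinoic acid receptors *Rara* was the most abundant, with 35.4, 36.6 and 21.4 CPM in KPF against 24.9, 23.6 and 18.0 CPM in WPF. KPF replicate 3 lay within the WPF range, the log2 fold change was 0.49 (SE 0.26, adjusted p = 0.526, edgeR's quasi-likelihood test), and *Rara* was called without KPF replicate 3 at 0.70. Its share of the summed FPKM of the 3 genes was 72.4% ± 0.98 in KPF and 69.0% ± 1.40 in WPF (mean ± SD, n = 3), without overlap (exact two-sided permutation p = 0.1). *Rarg* had a log2 fold change of 0.23 (SE 0.30), and *Rarb*, which overlaps the more abundant *Top2b* on the opposite strand, had 8 to 21 reads a library. Of 4 tested retinoic acid targets 0 were called, and the list median was 0.08.

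Thyroid hormone receptors raise lipogenic and oxidative genes in liver when bound by T3. *Thra* had 14.6, 32.2 and 15.7 CPM in KPF against 10.4, 8.78 and 57.7 CPM in WPF, the highest value in WPF replicate 4. Its log2 fold change was -0.30 (SE 0.72), and it was 1.11 and called higher without WPF replicate 4. The end of *Thra* overlaps *Nr1d1* on the opposite strand by 1075 bases in the deposited coordinates, and no strand-marking step is stated for these libraries, so reads there cannot be assigned to either gene. *Nr1d1*, the clock receptor Rev-erbα, had 31.0, 79.0 and 17.8 CPM in KPF against 12.6, 4.92 and 149 CPM in WPF, highest in WPF replicate 4 and next in KPF replicate 2, as for *Thra*. *Nr1d2*, which does not overlap *Thra*, had 43.4, 82.8 and 32.6 CPM and 11.8, 9.77 and 129 CPM. The part of the shared bases in the *Thra* values was not tested.

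*Thrb*, the other thyroid hormone receptor gene, had 8.86, 13.6 and 18.0 CPM in KPF against 14.2, 18.0 and 15.1 CPM in WPF, with a log2 fold change of -0.22 (SE 0.29). In the summed FPKM of both genes, *Thra* had 72.4, 79.1 and 58.2% in KPF and 53.9, 43.8 and 85.9% in WPF. That was the larger share except in WPF replicate 3. Whether reads from the bases shared with *Nr1d1* are part of these values was not tested. Of 6 tested thyroid hormone targets, 3 were called lower in KPF and 0 higher, with a list median of -0.95. They were *Me1*, the malic enzyme (-3.35), *Thrsp*, a lipogenic nuclear protein (-2.25), and *Gpd2*, the mitochondrial glycerol-3-phosphate dehydrogenase (-1.88). The 3 others, *Dio1* (-0.01), *Klf9* (0.16) and *Bcl3* (0.26), were not called. Of all tested genes, 3.98% were called lower. *Me1* and *Thrsp* are also targets of ChREBP. *Thrsp* had 59.3, 321 and 252 CPM in KPF against 1076, 1632 and 306 CPM in WPF, so that WPF replicate 4 was within the KPF range. Without WPF replicate 3, 1 target was called lower, and without KPF replicate 1 or 2 or WPF replicate 2, 2 were. *Vdr*, the vitamin D receptor, had 0 to 3 reads a library.

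**Figure D3:**
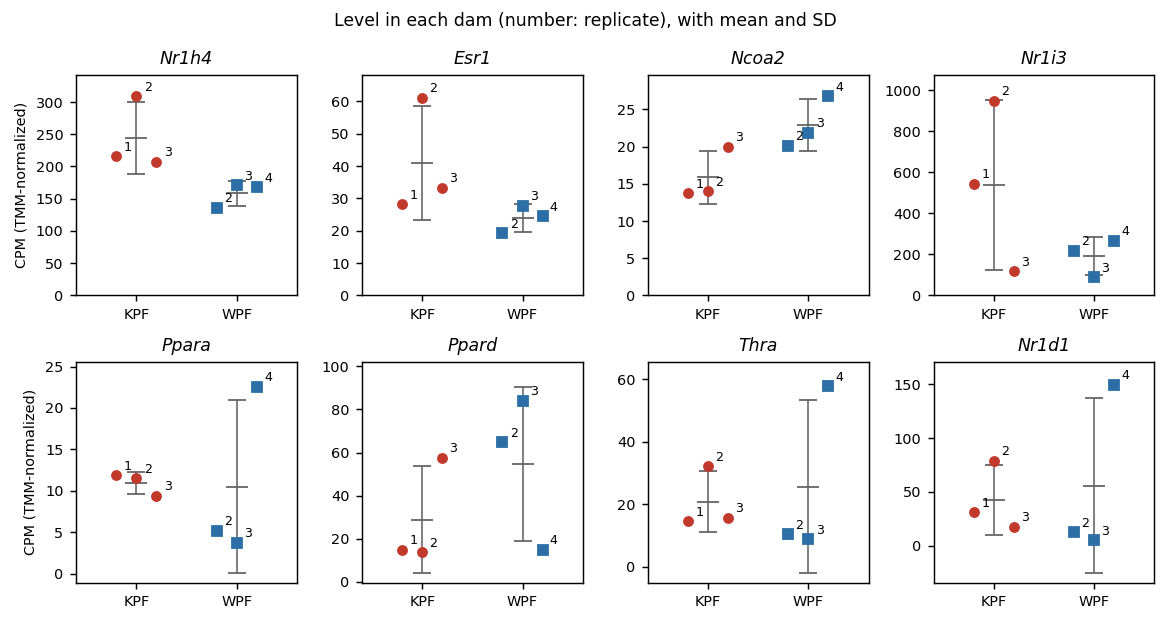
CPM of 7 members and of *Nr1d1* in each dam, labelled by replicate number, with the mean and SD of each group (n = 3). *Nr1h4* and *Esr1* are higher in each KPF dam and *Ncoa2* lower, whereas *Ppara*, *Thra* and *Nr1d1* are highest in WPF replicate 4 and *Ppard* is low there.

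Among the steroid receptors, *Esr1* encodes estrogen receptor α, the main estrogen receptor of liver. *Esr1* (ENSMUSG00000019768, chr10:4561593-4955614, plus strand, GRCm39) had 28.2, 61.1 and 33.3 CPM in KPF against 19.3, 27.8 and 24.5 CPM in WPF. Each KPF dam was above each WPF dam, KPF replicate 1 only just so. The KPF dams averaged 40.9 ± 17.7 CPM and the WPF dams 23.8 ± 4.28 CPM (± SD, n = 3 each), a 1.71-fold difference. On the log2 scale this was 0.78 (SE 0.32), and edgeR's quasi-likelihood test gave p = 0.0442 before and p = 0.456 after Benjamini-Hochberg adjustment, and the exact two-sided permutation p was 0.1. *Esr1* was higher in KPF under each of the 15 alternative settings and was called in 6 of them. Without KPF replicate 2, the library with the muscle markers, its log2 fold change was 0.36, and it was not called without WPF replicate 2 (0.64), WPF replicate 3 (0.90) or WPF replicate 4 (0.79) either. The summed markers of adipocytes, of fibroblasts and mesothelium, and of lymphocytes were higher in each KPF dam as well, and their part in the *Esr1* difference was not tested.

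*Nr3c1*, the glucocorticoid receptor, differed by less than the spread between dams, with 23.8 to 38.3 CPM in KPF, 26.2 to 33.0 CPM in WPF and a log2 fold change of -0.01 (SE 0.23). Of 13 tested glucocorticoid targets, 1 was called higher and 1 lower, and the list median was 0.04. *Pck1*, the enzyme that commits carbon to gluconeogenesis, was higher at 1.85, with 266, 1721 and 322 CPM in KPF against 198, 129 and 314 CPM in WPF, and the call was lost without KPF replicate 2 or WPF replicate 2 or 3. *Igfbp1*, an insulin-repressed binding protein of insulin-like growth factors, was lower at -2.46, with 13.5, 8.40 and 17.1 CPM in KPF against 80.7, 122 and 12.6 CPM in WPF. Here too WPF replicate 4 lay within the KPF range. Among these targets 2 were called higher without WPF replicate 4, and 2 or 3 lower without KPF replicate 1 or 3 or WPF replicate 3 or 4. *Nr3c2*, the mineralocorticoid receptor, had 22 to 127 reads a library. *Pgr*, the progesterone receptor, had 1 read in KPF replicate 1 and 0 in each other library.

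Of the orphan receptors of hepatocytes, *Hnf4a* and *Nr5a2* were among the steadier members. *Hnf4a* had 588, 403 and 437 CPM in KPF against 408, 403 and 411 CPM in WPF. The WPF dams were nearly equal, KPF replicates 1 and 3 were above them, KPF replicate 2 was level with the lowest, and the log2 fold change was 0.22 (SE 0.25). The span of the gene overlaps that of *Hnf4aos* on the opposite strand, which had a mean of 16.7 FPKM. Spans include introns, and shared exons were not examined, so whether part of the reads could belong to either is not known. The deposited coordinates show such an overlap on the opposite strand with a gene of at least 1 FPKM for 9 members, the others being *Thra*, *Nr1i3*, *Rarb*, *Esrra*, *Nr2c2*, *Nr2f6*, *Ncor1* and *Ncoa3*. *Hnf4a* made up 99.7% or more of the summed FPKM of the HNF4 pair, and *Hnf4g* had 1 to 11 reads a library. All 9 HNF4A target genes had a negative log2 fold change, as did 5281 of all 10866 tested genes. The median of the 9 was -0.38, and 2 were called lower, beside 3.98% of all tested genes. These 2 were *Apoa2*, an HDL apolipoprotein (-0.79), and *Mttp*, the triglyceride transfer protein of lipoprotein assembly (-0.91). *Mttp* is named in the paper as a target of ChREBP as well. It had 60.6, 31.3 and 74.6 CPM in KPF against 130, 111 and 72.1 CPM in WPF, so that KPF replicate 3 lay above WPF replicate 4. The hepatocyte markers, which share *Ttr* with this list, also summed to less FPKM in each KPF library than in any WPF library, mostly through *Alb*. In CPM the groups overlapped for each of the 7 markers, with 5 lower and 2 higher in KPF. The part of hepatocyte RNA in the values of the HNF4A targets was not tested. Without KPF replicate 1 or WPF replicate 2 or 3, 0 of the targets were called, without KPF replicate 2 1, and without WPF replicate 4 3.

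*Nr5a2* (LRH-1), which drives bile acid synthesis genes, had a log2 fold change of 0.00 (SE 0.19) at 25.4 to 33.3 CPM. *Rora*, a clock-linked receptor, had 0.19 (SE 0.29). *Esrra*, the estrogen-related receptor that with PGC-1 coactivators drives mitochondrial genes, had 35.6, 81.3 and 33.9 CPM in KPF against 40.1, 43.1 and 42.3 CPM in WPF. Only KPF replicate 2, with the muscle markers, was above WPF, and the other KPF dams were below it. The log2 fold change of 0.27 (SE 0.35) was -0.27 without that library. The part of muscle RNA in it was not tested.

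The remaining orphan receptors showed no called difference. *Nr2f6*, at a mean of 13.0 FPKM, had a log2 fold change of 0.02 (SE 0.25), *Nr2f2* (COUP-TFII) -0.07 (SE 0.26), *Nr2c1* -0.33 (SE 0.25) and *Nr6a1* -0.27 (SE 0.45). *Nr6a1* was lowest in KPF replicate 1, at 4.76 CPM, and 10.2 to 18.6 CPM in the other dams. *Nr2c2*, which overlaps the more abundant *Mrps25* on the opposite strand, had 13 to 27 reads a library and *Nr2f1* 6 to 19. The immediate early receptors *Nr4a1*, with 22 to 51 reads, and *Nr4a2*, with 1 to 10, were below the FPKM minimum. Of 6 tested immediate early genes, *Btg2*, an antiproliferative factor, was called higher at 0.96, and the call was lost without KPF replicate 2 or WPF replicate 2 or 3.

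Of the 6 coregulators, 5 had a negative log2 fold change, as did 5281 of all 10866 tested genes. The other, *Ppargc1b*, was positive and kept its sign in 13 of 15 alternative settings. It was negative with limma on log2(FPKM + 0.1) and without KPF replicate 2. The median of the 6 coregulators was -0.22, beside 0.05 for the 25 tested receptors. *Ncoa2* (SRC-2), a p160 coactivator of nuclear receptors, had 13.7, 14.0 and 20.0 CPM in KPF against 20.1, 21.8 and 26.8 CPM in WPF. Every KPF dam was below every WPF dam, KPF replicate 3 by a small margin. The KPF dams averaged 15.9 ± 3.55 CPM and the WPF dams 22.9 ± 3.44 CPM (± SD, n = 3 each), 1.44-fold higher in WPF. The difference on the log2 scale was -0.53 (SE 0.23), and edgeR's quasi-likelihood test gave p = 0.0524 before and p = 0.464 after Benjamini-Hochberg adjustment, and the exact two-sided permutation p was 0.1. It was called lower at -0.73 without KPF replicate 3.

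The related coactivators *Ncoa1* and *Ncoa3* had log2 fold changes of -0.15 (SE 0.23) and -0.03 (SE 0.20). *Ncor1*, the corepressor of unliganded receptors, had 63.6, 63.4 and 82.3 CPM in KPF against 97.9, 86.4 and 72.4 CPM in WPF, a log2 fold change of -0.29 (SE 0.23). KPF replicate 3 and WPF replicate 4 lay between the other dams. *Ncor1* overlaps *Ttc19* on the opposite strand by 12026 bases, and *Ttc19* had a mean of 3.53 FPKM. *Nrip1* (RIP140), a corepressor that dampens oxidative genes, had 12.9, 12.6 and 16.6 CPM in KPF against 29.6, 21.4 and 7.79 CPM in WPF, and its log2 fold change of -0.48 (SE 0.44) was -0.87 and called without WPF replicate 4. *Ppargc1b* (PGC-1β), a coactivator of mitochondrial and lipogenic genes, had 1.81, 11.0 and 1.83 CPM in KPF against 6.74, 2.88 and 1.70 CPM in WPF. KPF replicate 2 was the highest, and the log2 fold change of 0.38 (SE 0.81) was -1.04 without it.

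Of 24 further coregulators 20 were tested, with 1 called higher and 2 lower and a median of -0.07. *Lpin1*, a phosphatidate phosphatase that also coactivates PPARα, was lower at -1.98, with 11.3, 23.0 and 5.96 CPM in KPF against 58.6, 70.4 and 30.7 CPM in WPF, which did not overlap. *Sirt1*, an NAD-dependent deacetylase, was lower at -0.71, and *Gps2*, a subunit of the NCOR complex, higher at 0.82. Without KPF replicate 1, WPF replicate 3 or WPF replicate 4, 1 was called lower and 0 higher, and without KPF replicate 3 2 were called higher.

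**Figure D4:**
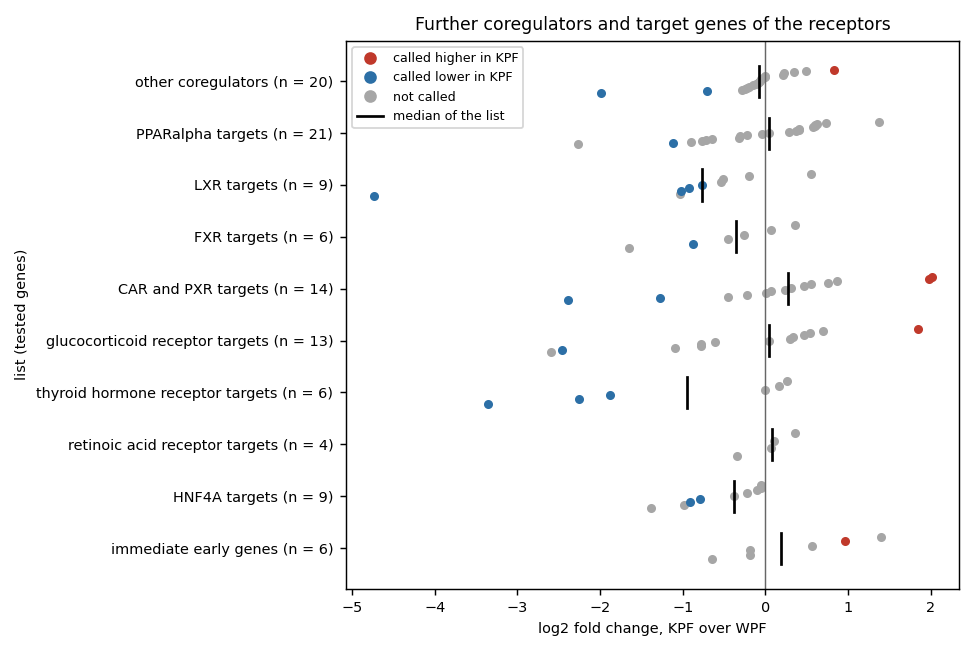
Log2 fold change of KPF over WPF for every tested gene of the further coregulators and of 9 lists of target or immediate early genes (points), with the median of each list (bar) and the number of tested genes in brackets. The lists with the most genes called lower are the LXR and thyroid hormone receptor targets, with 4 and 3, beside 3.98% of all tested genes. The leftmost point is *Scd1* at -4.74.

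Levels varied between the dams of a group as well as between the groups. The ratio of the highest to the lowest library was at most 1.5 for 5 tested members, *Nr5a2*, *Ncoa3*, *Nr1h2*, *Rxrb* and *Hnf4a*. It exceeded 2 for 15 and 4 for 6, *Ppard*, *Ppara*, *Nr0b2*, *Ppargc1b*, *Thra* and *Nr1i3*. Of the tested members, 10 were highest in KPF replicate 2 and 8 in WPF replicate 4, the libraries that stood apart by muscle markers and by *Nr1d1*. The libraries in which all tested genes peaked were not counted, so these numbers do not set the members apart.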

How the data were processed

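Liver RNA of 3 KPF and 3 WPF dams was analysed, each dam as 1 replicate. The table deposited by the authors holds, for each gene, an unscaled read count and an FPKM value per library. The submitters' processing notes name cutadapt 1.9.1, HISAT2 2.2.1, HTSeq 0.6.1, DESeq2 and the GRCm39 genome. FPKM recomputed from the deposited counts, the exonic lengths and the library totals matched the authors' values within 0.01. Symbols were found for 52073 of 56691 gene IDs. Symbols and promoter sequences came from tables on GRCm38, and no coordinate was carried between builds.

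The groups were compared on the counts with the quasi-likelihood test of edgeR (version 4.0.16 in R 4.3.3), scaled by TMM factors of 0.891 to 1.18. The 10866 genes whose mean FPKM reached 1 were tested and their p values adjusted by Benjamini-Hochberg over the whole set. Members under the minimum entered a second fit with all tested genes and were left without an adjusted p. SE is the log2 fold change divided by the square root of F. Exact two-sided permutation tests used log2(CPM + 0.5) and can give no p below 0.1. Unadjusted p values rest on the model. Alternatives were DESeq2 1.42.0, its size factors in edgeR, library totals, other filters, limma 3.58.1 on log2(FPKM + 1) and log2(FPKM + 0.1), the replicate number as a block, and each library left out.

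The members and the gene lists were chosen with earlier results of these data known, so the counts of lists are descriptions. Each such count stands beside 5.83% of all tested genes called higher and 3.98% lower. Named list genes are among the 4 tested ones with the smallest p of each list, apart from *Dio1*, *Klf9* and the untested *Cyp2b10*. The replicate numbers 2 and 3 occur in both groups but stand for different dams. Within each group, libraries differed by more than sampling noise, with a chi-square per gene of at least 48.0. Intervals for counting error were not used, since the spread between dams is larger. The protein features planned for the members were not analysed here, and a list of further receptors is not reported here.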

Additional observations from a re-analysis of the deposited data

How the results depend on the processing

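For each change of call or sign given here the cause was not tested. *Nr1h4* and *Esr1* kept their direction under all 15 alternatives and their call in 5 and 6 of them. With 3 dams a group no exact p can go below 0.1, and the 10 members under the FPKM minimum had SE of 0.42 to 1.99.

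The number of members called, 2 with edgeR and TMM, was 1 with library totals (0 higher, 1 lower), 1 with edgeR's own filter (1 higher), 1 with a minimum mean FPKM of 5 (1 higher), and 0 with limma on log2(FPKM + 1) or log2(FPKM + 0.1) (0 higher). Without an expression filter 1 member was lower. Leaving out 1 library at a time gave 0 to 7 members called, 0 to 5 higher and 0 to 2 lower. These were 7 without KPF replicate 3 and 0 without WPF replicate 2 or 3.

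Over all genes, those with an adjusted p under 0.05 numbered 156 with DESeq2, 286 without a filter and 0 to 5 with 1 library left out, against 0. Genes called higher and lower, 634 and 433, were 371 and 729 with library totals, 1576 and 910 without a filter, and 255 and 205 at an FPKM of 5. Limma gave 237 higher with an offset of 1, and 288 higher and 700 lower with 0.1. With 1 library left out they were 331 to 922 higher and 245 to 712 lower. Of the called genes, TMM put 59.4% higher in KPF, library totals 33.7% and limma 30.5% and 29.1%. Over all tested genes the median shifted from 0.02 to -0.12 with library totals and to -0.12 with limma on log2(FPKM + 0.1), and small differences of members changed sign with it.

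With library totals the sign turned for *Ppara* (-0.16), *Nr1h2* (-0.012), *Rxra* (-0.019), *Rxrb* (-0.13), *Nr5a2* (-0.14) and *Nr2f6* (-0.088). Without a filter it turned for *Ppara* (-0.0072), *Rxrb* (-0.056), *Nr5a2* (-0.061) and *Nr2f6* (-0.046), and with edgeR's own filter for *Rxrb* (-0.017), *Nr5a2* (-0.022) and *Nr2f6* (-0.0085). With limma on log2(FPKM + 1) it turned for *Nr1h2* (-0.024), *Rxrb* (-0.11), *Nr5a2* (-0.10) and *Nr2f6* (-0.11). With log2(FPKM + 0.1) it turned for these genes (-0.026, -0.12, -0.11 and -0.12), for *Thra* (0.026) and for *Ppargc1b* (-0.033).

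The same-numbered dams are separate animals. Measured from the mean of their group, their levels correlated at 0.04 for number 2 and -0.02 for number 3. Pairs of different numbers gave -0.19 to 0.14. With only numbers 2 and 3 shared, these values cannot decide whether the numbers mark a pairing. With the replicate block, which rests on numbers 2 and 3, 4 members were called, *Ppara* and *Thra* higher and *Ppard* and *Nrip1* lower (2 lower). The sign turned for *Nr1h2* (-0.023), *Rarg* (-0.12), *Thra* (1.24), *Nr3c1* (0.17), *Nr2f2* (0.064), *Nr2f6* (-0.32), *Nr6a1* (0.36) and *Ncoa1* (0.050).

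With 1 library left out, the log2 fold change ranged from -0.35 to 1.29 for *Ppara*, -0.020 to 0.22 for *Nr1h2*, -0.086 to 0.40 for *Rxra*, -0.13 to 0.13 for *Rxrb*, -0.77 to 1.11 for *Thra*, -0.49 to 0.0050 for *Thrb*, -0.22 to 0.14 for *Nr3c1*, -0.084 to 0.11 for *Nr5a2* and -1.43 to 0.32 for *Nr0b2*. It ranged from -0.11 to 0.36 for *Rora*, -0.27 to 0.48 for *Esrra*, -0.22 to 0.15 for *Nr2f2*, -0.21 to 0.14 for *Nr2f6*, -0.61 to 0.11 for *Nr6a1*, -0.14 to 0.10 for *Ncoa3* and -1.04 to 1.09 for *Ppargc1b*.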
